A study of Mus musculus with 2 samples.

Results

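The genes described here are 6 transcripts that are widely used to read out bone morphogenetic protein (BMP) signalling, namely Id1, Id2, Id3, Id4, Smad6 and Smad7. They were taken by symbol, and all 6 were found once in each matrix, out of 32286 features. Of 17286 barcodes, 15780 passed as cells, each showing 500 genes or more and no more than 10% mitochondrial UMIs (unique molecular identifiers, the counted molecules). The study compared 2 groups of Procr-CreER;tdTomato mice, in which a tamoxifen-dependent Cre expressed from Procr switches on the red reporter tdTomato in cells that express Procr and in their descendants. Both groups carried both alleles and received tamoxifen at 4 weeks of age. Knee cartilage cells were taken 2 days later in the pulse group and 4 weeks later in the trace group, so age at collection differed with the chase. Each group was 1 droplet library of 3 pooled mice, and barcodes do not tell the mice apart. The protocol in the labels digested periosteum as well as cartilage. No value therefore has a replicate error, no difference between the libraries could be tested across animals, and no p-value is given. Intervals in parentheses are exact 95% intervals and cover counting error only.

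BMP ligands bind type I and type II receptor kinases, which phosphorylate Smad1, Smad5 and Smad9, and these enter the nucleus with Smad4. The Id genes are among the direct targets. They encode helix-loop-helix proteins that lack a DNA-binding region and hold basic helix-loop-helix factors away from DNA. Smad6 and Smad7 are targets too and feed back: Smad6 acts mainly on the BMP branch, and Smad7 on the BMP and the TGF-beta branches. None of the 6 answers to BMP alone, since TGF-beta, serum and other signals also act on them. In cartilage, BMP signalling is needed to form and keep the tissue, and Bmp2 is one of its ligands.

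Sequences from RefSeq's table of promoters (GRCm38.p6) were taken for 4 of the 6 genes, Id2, Id3, Id4 and Smad6. The bases just before the start are shown for 3 Id genes, because Id2 and Id3 are the members that differed most between the libraries in surface chondrocytes and Id4 is the least abundant there. They lie upstream of the gene and outside its exons, at chr12:25096093-25096342 on the minus strand for Id2, chr4:136143572-136143821 on the plus strand for Id3 and chr13:48260866-48261115 on the plus strand for Id4. Capitals mark matches on either strand to GGCGCC, a GC-rich element known from BMP-responsive genes, and to GTCT, the short Smad-binding letters, which read AGAC on the other strand. No match of one motif overlapped the other.
Id2: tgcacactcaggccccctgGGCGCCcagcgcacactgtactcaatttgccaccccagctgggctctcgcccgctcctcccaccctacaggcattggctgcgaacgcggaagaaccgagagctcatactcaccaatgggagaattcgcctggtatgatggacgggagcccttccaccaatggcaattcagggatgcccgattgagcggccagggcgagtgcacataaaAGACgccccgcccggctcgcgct
Id3: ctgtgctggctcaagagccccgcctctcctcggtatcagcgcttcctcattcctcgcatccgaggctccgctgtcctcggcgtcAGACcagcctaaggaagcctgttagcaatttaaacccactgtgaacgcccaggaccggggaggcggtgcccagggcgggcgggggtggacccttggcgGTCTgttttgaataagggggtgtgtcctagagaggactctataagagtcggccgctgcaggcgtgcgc
Id4: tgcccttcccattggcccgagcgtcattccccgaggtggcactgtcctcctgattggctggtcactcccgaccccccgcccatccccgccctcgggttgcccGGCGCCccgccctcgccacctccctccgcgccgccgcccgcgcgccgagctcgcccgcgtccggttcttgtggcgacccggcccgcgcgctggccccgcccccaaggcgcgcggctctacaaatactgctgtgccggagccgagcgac
Id2 had 1 GGCGCC and 1 GTCT match, Id3 had no GGCGCC and 2 GTCT matches, and Id4 had 1 GGCGCC and no GTCT match. The 224 bases before Smad6 held neither. Of 32851 promoter windows of 250 bases in the table, 9.59% held GGCGCC and 82.9% held GTCT, so GTCT sets few windows apart. A match is a description of letters, and no measurement of binding was made here.

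The 2 libraries differed in more than chase time. Pulse cells held 3 UMIs of Xist and 4246 of the Y-linked Ddx3y, trace cells 14149 and 13, so the pooled mice of the libraries differed in sex. Ribosomal RNA-associated transcripts took 0.961% of pulse and 8.89% of trace UMIs, and the median depth was 2837 and 3645 UMIs per kept cell. Chase, age, sex and library cannot be told apart in any comparison below. Of the barcodes, 16 occurred in both libraries, 15 of them among kept cells.

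Each cell was placed in at most 1 of 11 cell types from its own marker UMIs. The labels call the cells superficial cells. Surface chondrocytes, with Prg4, Cytl1, Clu and other markers together with cartilage genes such as Sox9 and Acan, were 3502 cells (53.6% of kept cells) in pulse and 4097 (44.3%) in trace. Surface chondrocytes that passed within 20% of a marker limit (209 pulse and 126 trace cells) had Id2 at 202 and 413 CPM and Id3 at 14.3 and 125 CPM. Cells that missed the gate by as little (330 and 233) had Id2 at 181 and 366 CPM and Id3 at 28.5 and 135 CPM. In pulse 25.1% and in trace 21.3% of cells passed no gate, and 265 and 555 cells passed more than 1 and were left out. The sort was for living tdTomato-positive cells negative for CD31, CD45 and Ter119, yet the trace library held 314 endothelial cells, 247 neutrophils and 172 B lineage cells. Types with at least 50 cells numbered 6 in pulse and 10 in trace. Levels are in CPM, the gene's UMIs per 1000000 UMIs of the summed cells. UMIs count transcript 3' ends, so levels of different genes need no length scaling.

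Bmp2 and most of its readouts were highest in different cells. Bmp2 was highest in surface chondrocytes of both libraries, with a pulse level of 4536 CPM (4497 to 4575) and a trace level of 1623 CPM (1605 to 1641). The connective cells that express Npy and Angptl7 came next, at 838 and 819 CPM, and endothelial cells had 100.2 and 91.7 CPM. Id3 and Smad7 were lowest in surface chondrocytes among the 6 pulse types and near the lower end in trace, and were highest in trace in mural cells, the contractile cells of vessel walls. Id2 in trace and Id4 in pulse were highest in surface chondrocytes, as Bmp2 was. In pulse the Id4 interval of surface chondrocytes overlapped those of all other types except deeper-zone chondrocytes. Across the 16 sums of 1 cell type in 1 library, Pearson's r of log2(CPM + 10) with Bmp2 was 0.722 for Id2, between 0.193 and 0.301 for Id1, Id4 and Smad6, -0.209 for Smad7 and -0.347 for Id3. These correlations describe 16 sums that share 2 libraries and cover unequal numbers of cells. The sums include trace neutrophils and B lineage cells, whose Bmp2 (41.7 and 15.2 CPM) is read as background below. Endothelial Bmp2 stood at 2.21% of the surface chondrocyte level in pulse and 5.65% in trace. The surface marker Clu stood there at 8.33% and 5.54%, and Ecrg4 at 1.21% and 2.34%. Whether endothelial Bmp2 is background was not tested.

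**Figure D1:**
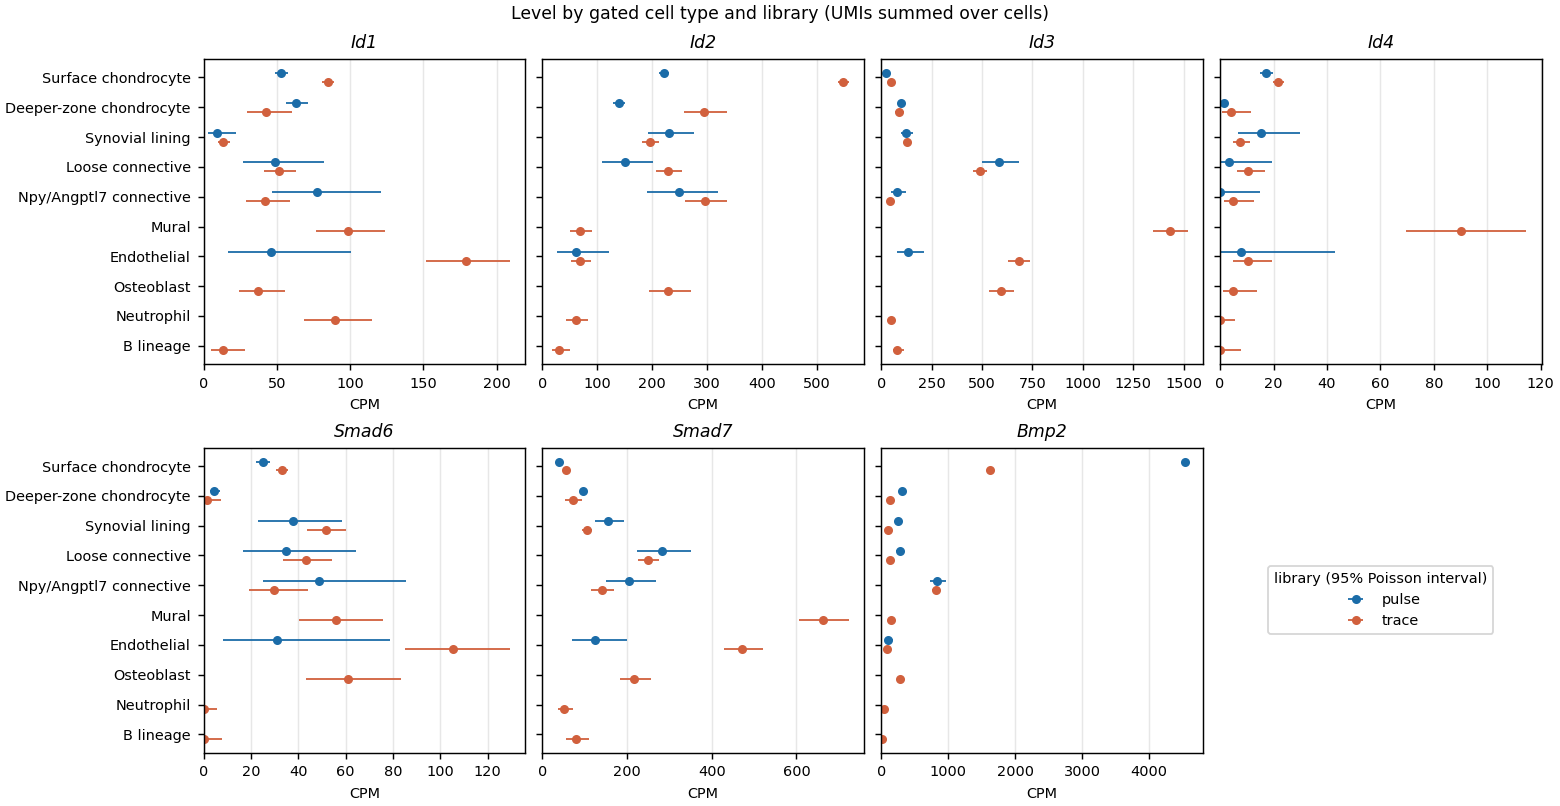
Level of each member and of Bmp2 in CPM (x axis, linear, own scale per panel) by gated cell type (y axis) in the pulse and trace libraries, for types with at least 50 cells. Points are sums over cells and bars exact 95% Poisson intervals. Bmp2 peaks in surface chondrocytes, whereas Id3 and Smad7 peak in trace mural cells at 1431 and 664 CPM.

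Id1 is the Id gene most often used as a BMP readout. It stood at 179 CPM (152 to 209) in trace endothelial cells, above all other types there. Trace mural cells (98.3), neutrophils (89.4) and surface chondrocytes (84.9) followed with overlapping intervals, then loose connective tissue fibroblasts (51.3), deeper-zone chondrocytes (42.9), Npy and Angptl7 expressing cells (42.1) and osteoblasts (37.5). The neutrophil value came from 60 UMIs in 6.88% of those cells. Synovial lining fibroblasts, at 13.3 CPM, and B lineage cells, at 13.0 CPM, were lowest. In pulse the 5 other types lay between 46.2 and 77.3 CPM with overlapping intervals of neighbours. Synovial lining fibroblasts were last at 9.48 CPM (3.08 to 22.1), an interval that overlapped that of endothelial cells (17.0 to 100.6).

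Id2 is the member with the highest level in surface chondrocytes. In trace it was 548 CPM (537 to 558) there, above the Npy and Angptl7 expressing cells at 296 and the deeper-zone chondrocytes at 295, which did not differ beyond their intervals. Osteoblasts and loose connective tissue fibroblasts, both at 229, and synovial lining fibroblasts at 196 formed the middle, and endothelial (68.8), mural (68.3), neutrophil (61.1) and B lineage cells (30.3) the low end. In pulse, Npy and Angptl7 expressing cells (248), synovial lining fibroblasts (231) and surface chondrocytes (222) overlapped. Loose connective tissue fibroblasts (150.1) and deeper-zone chondrocytes (139) had lower values, and endothelial cells had 61.6 CPM. The interval of loose connective tissue fibroblasts (109 to 202) lay below that of surface chondrocytes. It overlapped those of synovial lining fibroblasts and of Npy and Angptl7 expressing cells. The interval of endothelial cells (26.6 to 121) overlapped that of loose connective tissue fibroblasts, and mural and blood cells were too few in pulse to compare.

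Id3 in trace ran from 1431 CPM (1346 to 1520) in mural cells through endothelial cells (682), osteoblasts (595) and loose connective tissue fibroblasts (489) to synovial lining fibroblasts (129). Deeper-zone chondrocytes (89.8), B lineage cells (80.2), surface chondrocytes (48.1), neutrophils (46.2) and Npy and Angptl7 expressing cells (44.5) were the low end. In pulse, loose connective tissue fibroblasts led at 586 CPM (501 to 682), and surface chondrocytes were last at 23.6 CPM (20.9 to 26.6), below all 5 others. After each cell was thinned to 2000 UMIs to level the depth, an Id3 UMI was found in 65.1% of trace mural cells (57.5% to 72.2%) and in 7.65% of trace surface chondrocytes (6.80% to 8.57%).

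Id4 was the least abundant member in surface chondrocytes of both libraries. Trace mural cells had 90.1 CPM (69.7 to 114.7) and surface chondrocytes 21.7 CPM (19.7 to 23.9), and every other trace type was at 10.6 CPM or less. In pulse, surface chondrocytes had 17.2 CPM (14.8 to 19.7), synovial lining fibroblasts 15.2 CPM on 8 UMIs, and the other 4 types rested on 0 to 6 UMIs each. With 0 UMIs in neutrophils and B lineage cells, the Id4 intervals reached up to 5.50 and 7.99 CPM there.

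Smad6 and Smad7 encode the inhibitory Smads. Smad6 was highest in trace endothelial cells, at 105 CPM (85.0 to 129), then in osteoblasts (60.9), mural cells (56.0) and synovial lining fibroblasts (51.6), whose intervals overlapped. It was 33.0 CPM in trace and 24.9 CPM in pulse surface chondrocytes, and lowest among chondrocytes in the deeper zone, at 1.34 CPM on 1 UMI in trace and 4.55 CPM on 21 UMIs in pulse. Smad7 followed the order of Id3 at the top in trace, with mural cells at 664 CPM (606 to 725), endothelial cells at 472, and then loose connective tissue fibroblasts and osteoblasts (217), whose intervals overlapped. Trace surface chondrocytes had 55.1 CPM (51.9 to 58.6), with only neutrophils below at 52.2 and overlapping. In pulse, loose connective tissue fibroblasts led with 283 CPM, and surface chondrocytes were last with 39.4 CPM (35.9 to 43.3).

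Free RNA in droplets gives UMIs of a gene in cells that do not express it. In trace, Prg4, Cytl1, Clu, Ecrg4 and Cilp, 5 markers of surface chondrocytes, stood in neutrophils at 1.40% to 2.49% of their level in surface chondrocytes and in B lineage cells at 0.922% to 2.10%. Bmp2 stood at 2.57% and 0.935%, within or close to those ranges, so its UMIs in blood cells are read as background. Id2 stood at 11.2% in neutrophils and 5.54% in B lineage cells, above those ranges. Some of the 5 markers are not particular to surface chondrocytes. In trace, Prg4 stood at 106% of the surface level in synovial lining fibroblasts. Cilp and Clu stood at 87.2% and 48.5% in Npy and Angptl7 expressing cells. Id2 also had 296 CPM in those cells, and whether its UMIs in blood cells are background was not tested. Id1, Id3 and Smad7 in neutrophils stood at 94.6% or more of the surface level. That level does not measure their free RNA, since other types held more, such as mural cells with Id3 at 1431 and Smad7 at 664 CPM. Neutrophil Id1 was 60 UMIs in 6.88% of 247 cells, and Id3 was 31 UMIs in 3.64%. Whether these UMIs are background was not tested.

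The comparison of trace with pulse sets cells sorted as tdTomato-positive after the longer chase against those sorted after the shorter one. In surface chondrocytes all 6 members were higher in trace, and Id2 and Id3 were at least 2-fold higher, which is called higher below where 1 library has at least 20 CPM. Id2 had 222 CPM in pulse and 548 CPM in trace, a ratio of 2.47 (2.37 to 2.58). Id3 had 23.6 and 48.1 CPM, a ratio of 2.04 (1.77 to 2.34), and its interval reached below 2. Id1 was 1.60-fold higher (1.46 to 1.76), from 53.0 to 84.9 CPM. Smad7 (1.40), Smad6 (1.32) and Id4 (1.27) were less than 2-fold higher, with intervals above 1. Bmp2 itself was lower in trace, at 0.358 of the pulse level (0.353 to 0.363). Of 6214 genes at 20 CPM, 2.22% were called higher and 9.08% called lower. The median log2 ratio was 0.58 over the 6 members and -0.23 over all of those genes.

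Within the surface gate, cells were split by clustering in which the members and Bmp2 had no part, a split chosen after the data were seen. Cluster 2 held most Col10a1, the collagen X gene, with 7719 CPM in pulse and 5017 in trace, and cluster 1 had 158 and 78.6 CPM. Id2 was 2.44-fold higher in trace in cluster 1 and 2.35-fold in cluster 2, so its ratio was nearly as large in each. Id3 was 1.90-fold and 1.58-fold higher (1.29 to 1.94) in them, below 2-fold. Outside both clusters lay 104 pulse and 187 trace surface chondrocytes. In trace they had higher levels than either cluster of Id1 (251 CPM), Id2 (949.8), Id3 (234), Id4 (59.5) and Smad7 (165). Smad6 was 37.1 CPM in them, close to the 32.9 and 32.7 CPM of clusters 1 and 2, and no interval was computed for these levels. Fos in the cells outside both clusters was 346 CPM in pulse and 1842 CPM in trace, and Hspa1a 4280 and 9242 CPM. Beside this, the immediate early gene Fos was 3.98-fold higher in trace over all surface chondrocytes, but within cluster 1 it had 19.5 CPM in pulse and 23.4 in trace and within cluster 2 it had 26.6 and 25.1. Gate genes of the surface type summed to 33172 CPM in pulse and 69720 CPM in trace, and their part in these ratios was not tested. The stricter gates and the mean of each cell's own CPM also left 1 of 6 members called. Scaling to the median gene raised every log2 ratio by 0.23 and kept all 6 above 0.

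**Figure D2:**
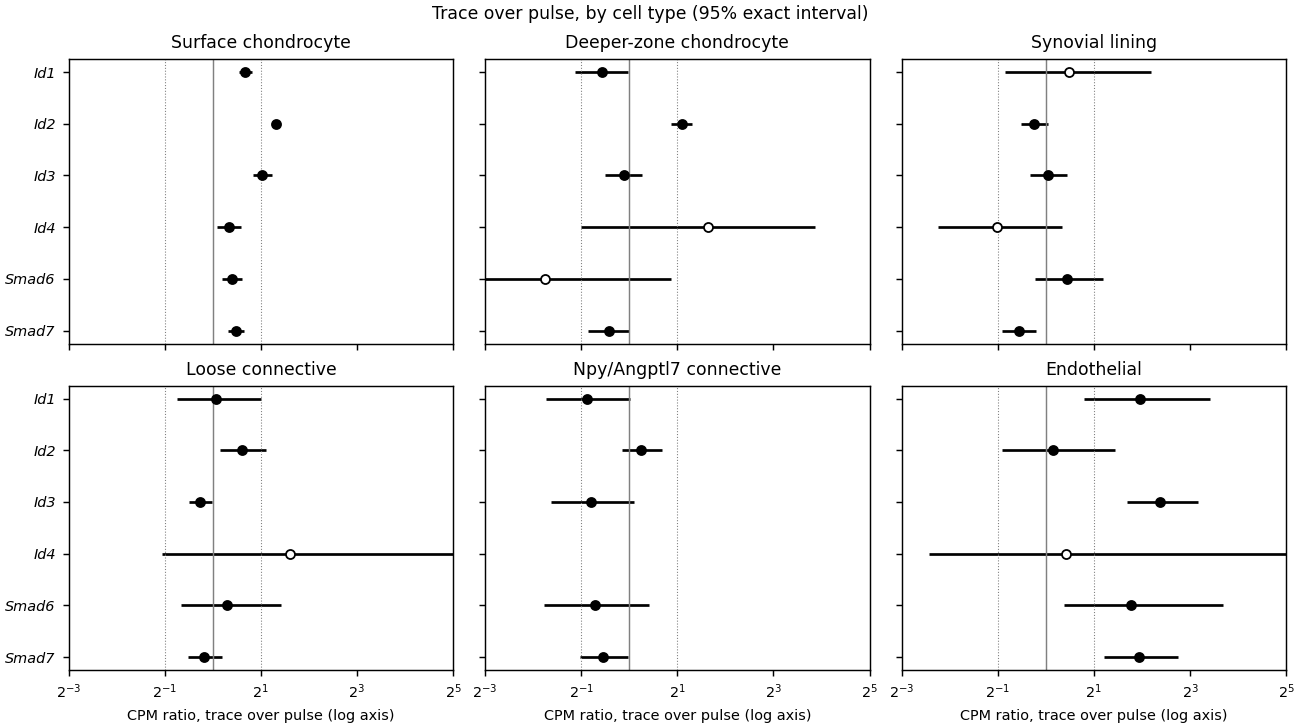
Ratio of CPM in trace over pulse (x axis, log scale) for each member (y axis) in the 6 cell types with at least 50 cells in both libraries. Bars are exact 95% intervals, filled points have at least 20 CPM in 1 library, and dotted lines mark 2-fold. Id2 is past 2-fold in both chondrocyte types, while the endothelial ratios have wide intervals from 54 pulse cells, and Id4 in Npy and Angptl7 expressing cells has no ratio because pulse had 0 UMIs.

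In the other types, 5 more of the pairs of a member and a type were called higher and none lower, so 7 of 29 pairs at 20 CPM were called over the 6 types. In deeper-zone chondrocytes Id2 was 139 CPM in the pulse and 295 CPM in the trace library, a ratio of 2.13 (1.82 to 2.48), from 589 and 106 cells, while Id1 was at 0.678 (0.455 to 0.979), Smad7 at 0.747 (0.553 to 0.993) and Id3 at 0.932 (0.709 to 1.21). Of genes at 20 CPM there, 3.97% were called higher and 19.0% lower. The deeper-zone gate genes summed to 5794 CPM in pulse and 2820 CPM in trace. In these cells the surface markers Prg4 and Cytl1 went from 100.1 to 223 CPM and from 52.2 to 736 CPM. Their part in the Id2 ratio was not tested. Endothelial cells had the other 4 calls. Id3 was 5.21-fold higher (3.22 to 9.0), Id1 3.87-fold (1.74 to 10.7), Smad7 3.83-fold (2.33 to 6.77) and Smad6 3.42-fold (1.29 to 12.8), whereas Id2 was level at 1.12 (0.531 to 2.70). Pulse had 54 such cells, with a median of 1580 UMIs, and 4 to 17 UMIs for each of those 4 genes. The 6 pulse UMIs of Id1 lay in 3.70% of the 54 cells, and the intervals treat UMIs as independent. The endothelial gate genes summed to 4423 CPM in pulse and 4858 CPM in trace, and Prg4 in these cells was 871 and 811 CPM. In endothelial cells the heat shock genes summed to 22332 CPM for pulse and 9424 CPM for trace, cycle genes to 393 and 109 CPM, and Eng stood at 285 and 953 CPM. Their part in these ratios was not tested. In endothelial cells 9.35% of genes were called higher and 21.0% lower. Leaving this type out left 3 called pairs of the 7.

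No member was called in the 3 connective tissue types. In synovial lining fibroblasts the 4 members at 20 CPM lay between 0.676 for Smad7 (0.529 to 0.872) and 1.36 for Smad6, where 2.87% of genes were called higher and 11.6% lower. Loose connective tissue fibroblasts had Id2 at 1.53 (1.11 to 2.15) and Id3 at 0.834 (0.706 to 0.990), where 4.53% and 16.3% of genes were called. In Npy and Angptl7 expressing cells, Id1 (0.544), Id3 (0.576), Smad6 (0.608) and Smad7 (0.687) were lower, and the interval of Smad7 alone lay below 1, where 5.75% and 19.8% of genes were called. Id2 was 1.19 there (0.896 to 1.60). For Id1, Id3, Smad6 and Smad7 the intervals lay above 1 in surface chondrocytes and endothelial cells, and in these connective types each included 1 or lay below it. Whether the types differ was not tested, since each library is 1 sample.

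The relation of the members to Bmp2 cell by cell asks whether surface chondrocytes that hold the ligand's transcript also hold more of the readouts. Each cell was thinned to 2000 UMIs, which left 2789 pulse and 3594 trace surface chondrocytes. A Bmp2 UMI was found in 88.4% of them in pulse (87.1% to 89.5%) and 66.7% in trace (65.2% to 68.3%), against 5.43% of trace neutrophils, whose median depth before thinning was 2114 UMIs. Id1 was lower in cells with Bmp2. In trace it had 0.148 UMIs per cell with Bmp2 (356 UMIs in 2398 cells) and 0.230 per cell without (275 UMIs in 1196 cells), a ratio of 0.646 (0.550 to 0.758). In pulse the means were 0.102 and 0.130, a ratio of 0.786 (0.565 to 1.12). For Id2 the interval included 1, at 1.05 (0.978 to 1.12) in trace and 0.900 (0.762 to 1.07) in pulse. Over 10 further thinning draws Id2 in pulse lay between 0.906 and 1.12, so the pulse value lay below all 10.

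The other members had lower counts, and their ratios also depended on which UMIs the thinning drew. Called here means at least 1.5-fold apart with at least 0.04 UMIs per cell on 1 side, the thinned equivalent of 20 CPM. In pulse, Smad6 was called lower in cells with Bmp2, at 0.626 (0.404 to 1.01), and Id3 called higher, at 1.55 (0.785 to 3.48) on 9 UMIs in the 324 cells without Bmp2. Over 10 further draws Id3 lay between 0.776 and 1.22 and was called in none, and without thinning it was 0.974, so its call came from 1 draw. Smad6 in pulse lay between 0.454 and 0.939 over the 10 draws and was called lower in 6. Id1 lay below 1 in all 10 draws of each library. It lay at 0.562 to 0.841 in pulse, where it was called lower in 7, and at 0.588 to 0.705 in trace, where it was called lower in 5. All draws take UMIs from the same cells, so they show the effect of the thinning and are not replicates. Smad7 in pulse lay between 0.665 and 0.992, and was called lower in 1 draw. In trace, Id3 was 0.886 (0.712 to 1.11), Smad6 0.943, Id4 0.948 and Smad7 1.01, with intervals that included 1. Over the 10 draws Id3 in trace lay below 1 in all (0.664 to 0.915) and was called lower in 1, and without thinning it was 0.744. Smad6 in trace also lay below 1 in all 10 (0.762 to 0.986), while Id4 lay above 1 in 9 of 10 (0.878 to 1.36). Id4 in pulse was 1.82 (0.801 to 5.10), below the minimum level, on 6 UMIs in the cells without Bmp2. It lay above 1 in all 10 draws (1.30 to 2.71). The minimum level was reached in 3 of the 10 draws, and Id4 was called higher in those 3. Without thinning it was 1.71.

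Of the members at the minimum level, 1 of 5 in pulse was called higher and 1 lower, and in trace 0 of 6 was called higher and 1, Id1, lower. Over all genes at that level, 5.23% in pulse were called higher and 8.57% lower. In trace 2.40% were called higher and 1.66% lower. Requiring 2 Bmp2 UMIs left no member called in either direction. Pearson's r with Bmp2 over cells lay between -0.0456 and 0.0171 for the 6 members in both libraries. Such weak correlations in sparse counts are no finding.

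**Figure D3:**
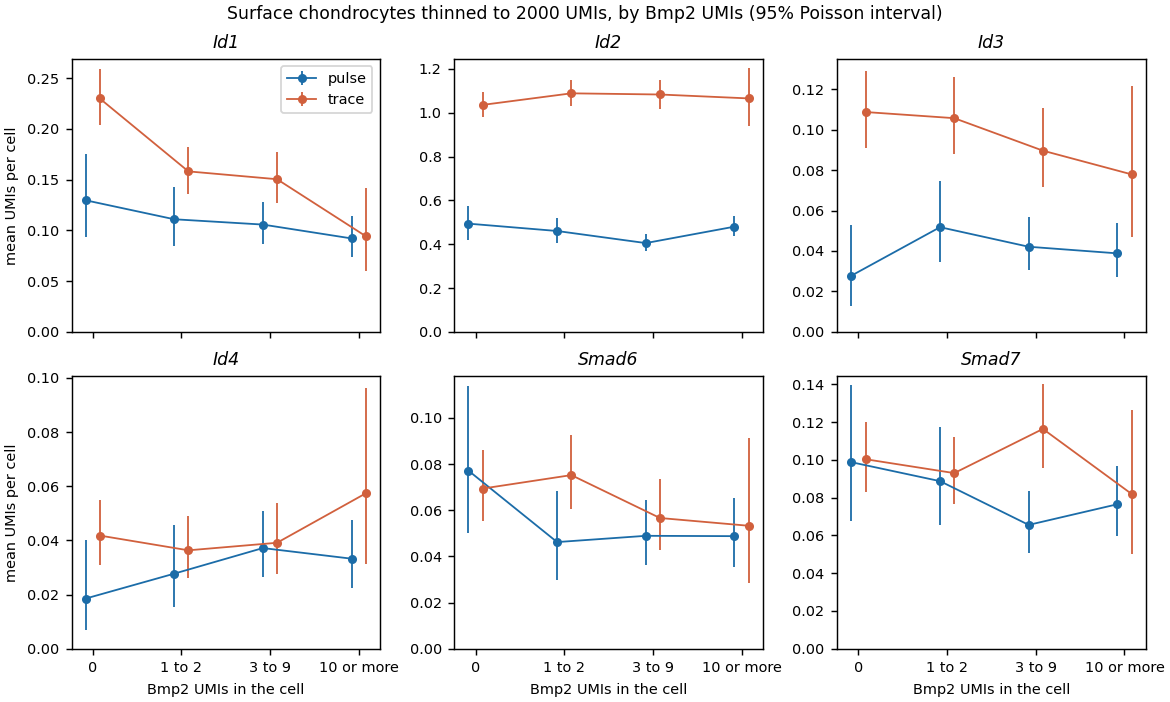
Mean UMIs per cell of each member (y axis, linear from 0, own scale per panel) in surface chondrocytes thinned to 2000 UMIs, by the number of Bmp2 UMIs in the cell (x axis), for pulse and trace, with exact 95% Poisson intervals. Id1 in trace runs from 0.230 in cells without Bmp2 to 0.0943 in cells with 10 or more, and Id2 stays near 1 in trace and between 0.405 and 0.494 in pulse.

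Graded by Bmp2 count, Id1 in trace was 0.230 UMIs per cell (0.204 to 0.259) with no Bmp2 UMI, 0.158 with 1 to 2, 0.15 with 3 to 9 and 0.0943 (0.0598 to 0.141) with 10 or more. In pulse it was 0.130, 0.111, 0.106 and 0.0920, with overlapping intervals. Id2 stayed between 1.04 and 1.09 UMIs per cell over the 4 bins in trace and between 0.405 and 0.494 in pulse. Trace cells held more Id2 than pulse cells in every bin, and within a library the bins overlapped. Id3, Id4, Smad6 and Smad7 showed no bin apart from the others within a library beyond their intervals.

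Fos moved with the Bmp2 bins too, from 0.298 UMIs per cell without Bmp2 to 0.0779 with 10 or more in trace. Among cells with no UMI of Fos, Fosb or Egr1, Id1 in trace was 0.685 (0.573 to 0.820) and in pulse 0.904 (0.613 to 1.38). Within cluster 1 the trace ratio of Id1 was 0.671 (0.537 to 0.837) and within cluster 2 it was 0.792 (0.576 to 1.11), so neither reached 1.5-fold. Outside both clusters, 86 trace cells without Bmp2 held 56 of the 275 Id1 UMIs and 318 of the 356 Fos UMIs of all cells without Bmp2. Id1 there was 0.391 UMIs per cell with Bmp2 and 0.651 without. Fos in clusters 1 and 2 was 1.48 (0.914 to 2.46) and 1.23 (0.653 to 2.52), and Hspa1a 0.863 and 0.999. Over all trace surface chondrocytes heat shock genes were lower in cells with Bmp2, with Hspa1a at 0.445 and Dnajb1 at 0.347, and these were among the 5 lowest there with Hspb1, Hspa1b and Tex14. Col10a1 was 1.80-fold higher in trace cells with Bmp2 and 1.69-fold in pulse. Within clusters 1 and 2 it was 1.73 and 1.02 in trace, and 0.803 and 1.03 in pulse. The genes with the highest ratios were AW112010 and Chil1 in both libraries, joined by Nos2, Gm13889 and Lrig1 in trace and by Filip1, Cx3cl1 and Lcn2 in pulse. The lowest in pulse was Msmp, at 0.00682, followed by Cdh13, Gadd45g, E330013P04Rik and G0s2. The part of these genes in the Id1 ratio was not tested.

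**Figure D4:**
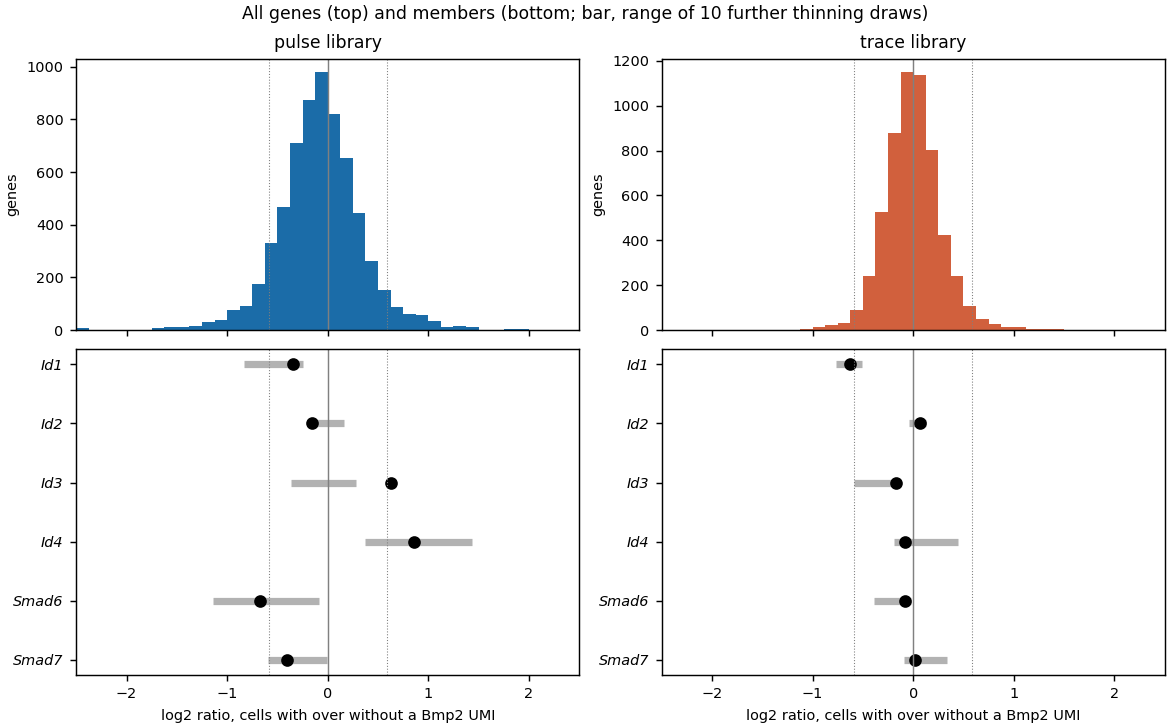
Distribution over all genes of the log2 ratio of mean UMIs in surface chondrocytes with over without a Bmp2 UMI (top, number of genes) and the same ratio for the members (bottom, points), with the range over 10 further thinning draws as grey bars and 1.5-fold as dotted lines. Id1 lies left of 0 in both libraries, and the pulse point of Id3 lies outside its own range of further draws.

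Other types allowed the same comparison where at least 50 thinned cells lay on each side. In trace synovial lining fibroblasts, 81 cells (13.7%) had a Bmp2 UMI and 510 had none, against the 5.43% of neutrophils read as background. Id1 there was 5.25-fold higher beside Bmp2 (2.03 to 13.3), on 10 and 12 UMIs, Smad7 was 1.65-fold higher (1.05 to 2.52) and Id2 1.44-fold (1.002 to 2.02), beside the surface markers Cytl1 at 1.09-fold and Ecrg4 at 1.59-fold (1.03 to 2.39). In trace loose connective tissue fibroblasts Smad7 was 1.68-fold higher with an interval above 1, on 54 UMIs in 71 cells and 137 in 302, beside Fos at 1.40-fold (1.19 to 1.63). In pulse deeper-zone chondrocytes every member had an interval that included 1, and Cytl1 was 3.00-fold higher beside Bmp2. Trace Npy and Angptl7 expressing cells also had intervals that included 1 for every member. Cytl1 and Ecrg4 there were 1.77-fold and 1.86-fold higher. These comparisons rest on 1 thinning draw.

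The rest of the pathway was measured in surface chondrocytes in the same way. Of 11 BMP ligand genes 3 reached 20 CPM, with Bmp2, Bmp5 at 0.373 (0.362 to 0.384) called lower, and Bmp6 at 0.709, from 1917 to 1360 CPM. Summed ligand transcripts were 7446 CPM in pulse and 3377 in trace, against 432 and 439 in endothelial cells, and 467 in trace mural cells. Receptor genes were not called in either direction (6 of 10 reached 20 CPM), with the type I receptors Acvr1 at 0.578 and Bmpr1b at 0.585, Bmpr1a at 1.05 and the type II receptor Bmpr2 at 0.784. Summed receptor transcripts were 992 and 734 CPM in surface chondrocytes and 1349 and 1881 CPM in endothelial cells. Eng, which encodes the endothelial co-receptor endoglin, had 953 CPM in trace endothelial cells and 12.8 CPM in trace surface chondrocytes.

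Of the Smads that carry the signal, Smad1 was at 0.571, Smad5 at 0.773 and Smad4 at 1.09 of the pulse level, and none of 3 at 20 CPM was called. Of the secreted antagonist genes 3 of 14 reached 20 CPM, with none called, and the list summed to 331 CPM in pulse and 332 in trace. They were Twsg1 (190 CPM in pulse and 196 in trace, 1.03), Chrdl2 (46.3 CPM in pulse and 57.8 in trace) and Nbl1 (0.865). Other BMP-induced genes and brakes had 5 of 9 at 20 CPM and none called, with Msx1 at 0.603, Smurf2 at 0.929, Tob1 at 0.821 and Smurf1 at 0.848. The median log2 ratio of that list was -0.24, near the -0.23 of all genes, whereas that of the 6 members was 0.58. In the TGF-beta branch none of 13 was called, with Ccn2 at 1.05, Tgfb2 at 0.720, Tgfbr3 at 0.902, Pmepa1 at 1.38, Tgif1 at 0.579 and Ski at 0.584. Among the basic helix-loop-helix factors, which include the Id-binding E proteins Tcf4 and Tcf12, Bhlhe40 was 2.20-fold higher (2.10 to 2.29), the only one of 6 called, with Tcf4 at 0.711, Tcf12 at 0.622 and Hes1 at 1.84.

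Of 11 immediate early genes, Fos and Fosb (3.05) were called higher, and Egr1 (0.479) and Btg2 (0.468) called lower, with Dusp1 at 0.799, Junb at 1.41 and Jun at 0.706. Of 4 heat shock genes none was called (Hspa1b 0.647, Hspa1a 1.49, Hsph1 0.655, Dnajb1 1.66). Of 8 cell cycle genes only Pcna reached 20 CPM, at 0.603. All 6 ribosomal RNA-associated transcripts were called higher, Gm42418 at 10.8-fold, Cmss1 at 12.1-fold, Gphn at 6.40-fold and Camk1d at 4.46-fold.

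Among themselves, the members did not share 1 pattern. Over the 16 sums, Id3 and Smad7 were most alike, with a Pearson's r of 0.898, and each was the gene nearest to the other among 6895 genes. Smad6 and Smad7 had 0.674, Id3 and Smad6 0.555, and Id2 had -0.261 with Id3 and -0.0733 with Id1. After Smad7, the genes nearest to Id3 were Fosb, Cxcl12, Adamts12 and Sema4c (0.880 to 0.857), and after Id3 those nearest to Smad7 were Soga1, Irf1 and Map1b (0.861 to 0.837). Id2 was nearest to Errfi1 (0.899), Clmp, Hectd2, Ccn2 and Plod2. Id1 was nearest to Cebpd (0.783), Itpkb, Ier5, Pxn and Fam117b. Id4 was nearest to Ednra (0.845), Il34, Pdlim3, Gucy1a2 and Tbx3, and Smad6 to Secisbp2l (0.911), Mef2a, Nfib, Aplp2 and Acvr2a. Cell by cell the members were only weakly related: over 15 pairs the highest r was 0.0499 in pulse and 0.218 in trace surface chondrocytes, the latter for Id1 and Id3. In trace loose connective tissue fibroblasts Id3 and Smad7 had an r of 0.332 over 373 cells, the highest of their 15 pairs. The highest in trace endothelial cells was 0.355, for Id2 and Id3 over 180 cells, where 12 cells held both against 11.6 if independent.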

How the data were processed

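The 2 libraries came from sorted knee cartilage cells, prepared with the 10x Genomics 3' V2 kit per the labels' protocols. The values the authors deposited are unnormalized counts of UMIs for every gene in every barcode. Per the file headers Cell Ranger 7.1.0 made the matrices, whereas version 3.0.1 and the build mm10 stand in the submitters' processing notes. Which is right was not settled. For the annotation release and intron counting the sources used here give nothing.

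Cells with at least 500 genes and at most 10% mitochondrial UMIs were kept, 6533 in pulse and 9247 in trace. A surface chondrocyte had at least 1% of its UMIs from surface markers, 0.3% from cartilage genes, 3 genes of each list and no other lineage. Other types needed 2 to 10 UMIs from at least 2 marker genes (3 for neutrophils). Marker subsets and these limits were adjusted against clusters after the cells were seen, from 2%, 0.5% and higher UMI minimums. Some list genes left out of the gates were higher in another type. In pulse, Chad had 475 CPM in deeper-zone and 4212 CPM in surface chondrocytes. In trace, Cspg4 had 49.2 CPM in mural cells and 189 CPM in deeper-zone chondrocytes. Itga6 and Sema3c were also higher outside their type, and Crtac1 had 0.265 CPM in pulse surface chondrocytes. Others left out, such as Col9a2, Hbegf, Ly6a and Phex, were highest in their own type. Members and lists were chosen with earlier results of these data known.

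UMIs were summed per type and library and scaled to CPM. Levels carry exact Poisson intervals, ratios exact conditional Poisson intervals and shares exact Clopper-Pearson intervals. For calls of ratios, a sum of 0 was set to 3 UMIs. The minimum of 0.04 UMIs and the Bmp2 bins were set after a first look, as was the choice to repeat the thinning. Genes outside the members were named by level and ratio within each pathway list, by pattern likeness (at least 50 CPM in 1 sum) and as the 5 highest and lowest ratios beside Bmp2 (at least 0.1 UMIs per cell). An item that these rules name is not reported here. Col10a1, Cytl1, Ecrg4, Prg4, Eng, Btg2 and the genes left out of the gates, where these rules do not name them, were named after their values were seen. Doublets were not removed in the main values. Scrublet scores served as an alternative. The steps were tested on simulated data. Computation used scanpy 1.11.5, igraph 0.11.9, scipy 1.17.1 and numpy 2.4.6 under Python 3.11.15.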

Additional observations from a re-analysis of the deposited data

How the results depend on the processing

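No paired analysis was possible because each group had 1 library. The count of members called between trace and pulse in surface chondrocytes, 2, was 1 with stricter gates, with the mean of each cell's CPM, within cluster 1 alone and within cluster 2 alone, and 2 under the other 9 alternatives. Id2 and Id3 kept their direction under all 13, with log2 ratios of 1.21 to 1.54 and 0.66 to 1.36. The 7 called pairs of a member and a type were 3 with at least 1000 genes per cell, 4 with stricter gates and 3 without the endothelial cells, and at most 10 with Leiden clusters. The first 2 of these left 5 types, since 1 type no longer had 50 cells in both libraries. Members called higher beside Bmp2, 1 over both libraries, were 0 with Leiden clusters, stricter gates, at least 2 Bmp2 UMIs, thinning to 1000 UMIs, no thinning, cluster 1 alone, cells with no Fos, Fosb or Egr1 UMI and another draw, and 2 in cluster 2 alone. The log2 ratio of Id3 in pulse, 0.63, was -0.038 without thinning and -0.095 in another draw. Members called lower, 2, were 1 with Leiden clusters, thinning to 1000 UMIs, no thinning and cells with no Fos, Fosb or Egr1 UMI, 0 with at least 2 Bmp2 UMIs and 4 at the lower fold limit tried. Id1 stayed lower beside Bmp2 in both libraries under all 12 alternatives that give a ratio, at log2 ratios of -0.85 to -0.34 in trace and -0.64 to -0.14 in pulse. The causes were not tested. The cluster splits, the cells without Fos, Fosb or Egr1, the further draws and the set without endothelial cells were added after seeing the data. Depth limits the comparisons beside Bmp2 that rest on few UMIs, such as Id3 and Id4 in pulse, and the pulse values of endothelial cells.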
